A study of Mus musculus with 12 samples.

Results

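The 42 genes described here encode actin and the proteins that build, branch, cap, cut and bundle its filaments, and they are 42 of the 22243 genes measured. They were taken from a list of gene symbols that was put together with results of these data in view. Gmfg and Plekho1 are in it partly because their levels differed between the genotypes, so the genotype values of the members are given as a description, without a test. The members fall into 2 actins, 4 proteins that bind actin monomers, 7 proteins of the ADF/cofilin group and its partner Wdr1, 9 genes of the Arp2/3 complex, 4 proteins of the WASP and WAVE nucleation machinery, 6 genes of capping and severing, 3 coronins, 4 bundling or elongation factors, 2 membrane linkers and vimentin.

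Bone marrow-derived macrophages (BM-Mɸs) were grown in conditioned medium containing M-CSF from 6 LysMCre/ErbB4-floxed mice (ErbB4myeKO) and 6 ErbB4-floxed mice (ErbB4FF), all on the C57Bl/6 background, with 1 mouse of each genotype from each of 6 litters. All 12 cultures were M1 activated with IFN-γ at 100 U/mL (16 h), followed by LPS at 100 ng/mL (6 h), so no unstimulated culture is compared here. Both genotypes carry the floxed ErbB4 alleles and they differ in LysMCre, a Cre recombinase driven by the promoter of the lysozyme gene Lyz2 in myeloid cells. Polyadenylated RNA was sequenced, and the deposited values are TPM, abundances scaled for transcript length and library total, which carry no read depth. Only transcripts marked as principal are listed, and they held 59.0% to 74.7% of all TPM of a library. The part left out can differ by gene, so levels compared between genes are those of the listed transcripts. A level below is the TPM of a gene summed over its listed transcripts, and a log2 ratio is the difference in log2(TPM + 0.5) between an ErbB4myeKO library and its ErbB4FF littermate, given as mean ± SD of the 6 litters.

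Macrophages move and engulf by pushing the plasma membrane outward with growing actin filaments. Monomers kept ready by profilin and thymosins are added at filament ends, the Arp2/3 complex starts new branches when the WASP and WAVE proteins switch it on, capping proteins stop growth, and cofilin with its partners takes old filaments apart. Glia maturation factors, Gmfg and Gmfb, belong to the cofilin family but act on branches, which they remove by binding the Arp2/3 complex. Inflammatory activation of macrophages is known to be accompanied by ruffling, spreading and rebuilding of this network.

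The targeted gene Erbb4 was between 0.280 and 0.852 TPM in ErbB4myeKO libraries and between 0.372 and 0.716 TPM in ErbB4FF libraries, and it was higher in the ErbB4myeKO littermate in 4 of 6 litters. This sum over whole transcripts, at under 1 TPM in every library, does not check the labels. Macrophage markers (7 genes, among them Adgre1, Csf1r and Lyz2) summed to between 4981 and 14835 TPM. Lymphocyte markers (8 genes) and erythroid markers (6 genes) summed to at most 2.54 and 0.981 TPM, and the 10 neutrophil markers to between 39.7 and 371 TPM, where S100a8 and S100a9, which activated macrophages also express, held most of the signal. Litter 5 stood apart in a measure taken over the whole table. Its listed transcripts held 71.4% and 74.7% of all TPM against 59.0% to 64.9% in the other 10 libraries, so the main values are given with and without it.

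The 42 genes together held between 2.85% and 4.56% of the listed TPM of a library, with a sum between 18212 and 34114 TPM. Actb, β-actin, had a mean level of 5641 TPM over the 12 libraries and ranked 9 of all genes. At the other end stood Evl at a mean of 0.0746 TPM, Cfl2 at 3.70 TPM and Fscn1 at 7.65 TPM. A mean of at least 1 TPM was asked of a gene for the comparisons, and 41 of the 42 members passed; Evl did not.

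**Figure D1:**
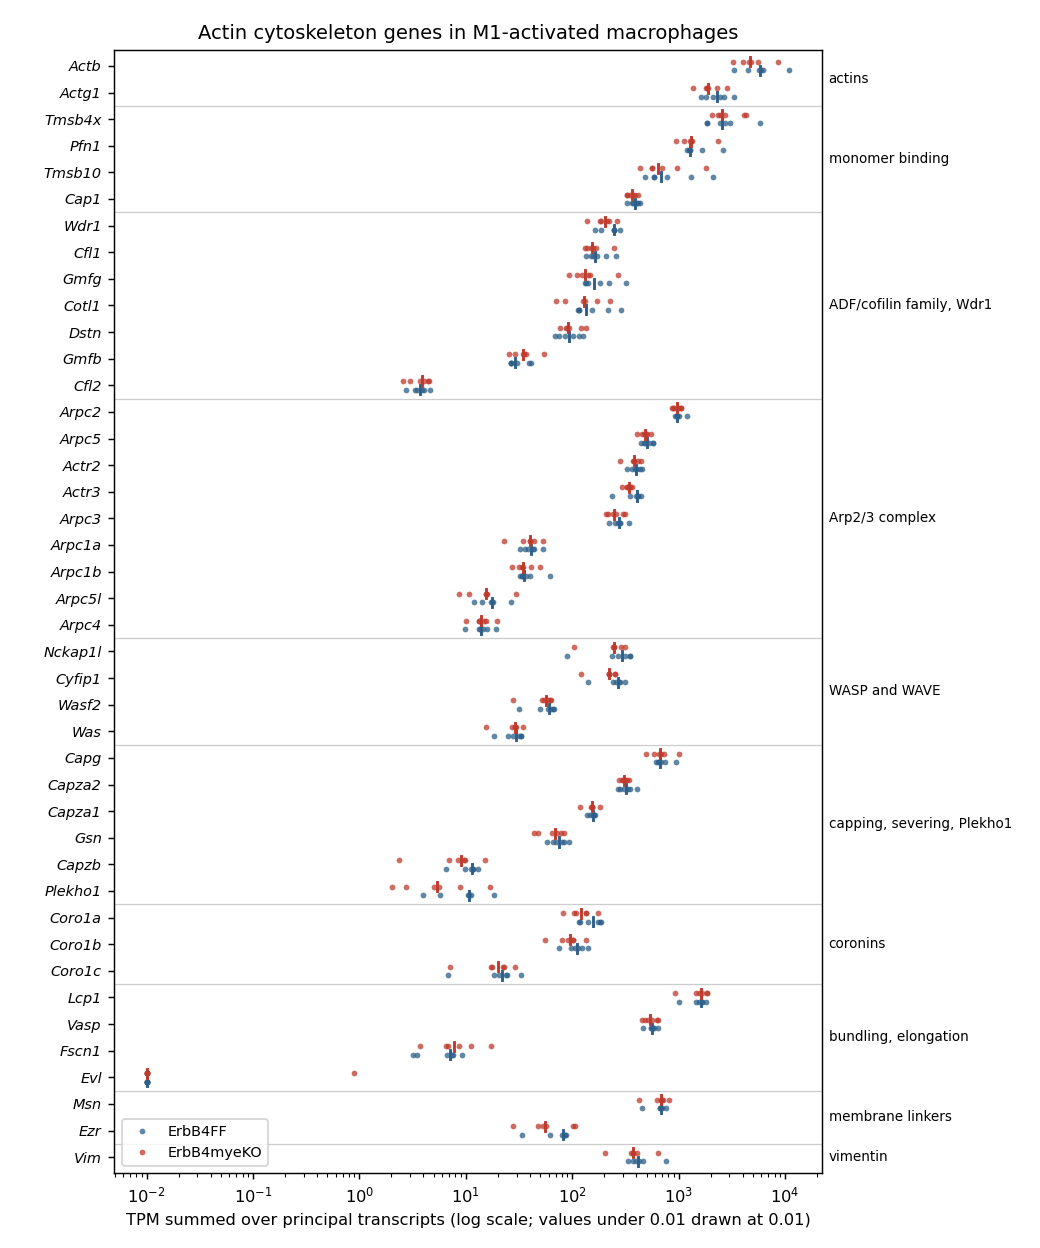
Level of each member in TPM (log scale; values under 0.01 TPM drawn at 0.01) in 6 ErbB4FF (blue) and 6 ErbB4myeKO (red) libraries, with a vertical bar at each median and members grouped by role. Actb, Tmsb4x and Actg1 lie highest, Evl is listed at 0 in 11 libraries, and the points of the genotypes overlap for every member.

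Between littermates, 35 of the 41 members that passed had a mean log2 ratio below 0, that is, a lower mean level in ErbB4myeKO libraries, against 50.2% of all 8780 genes that passed. The median log2 ratio was -0.11 over the members and -0.00 over all genes. The ranges of the genotypes overlapped for all 42 members, and of all 8780 genes 4 (0.0456%) had ranges that did not overlap. In a fit of limma with litter as a block, 0 of 8780 genes (0%) passed an adjusted p of 0.05, and the smallest adjusted p was 0.603. At an unadjusted p under 0.05, limma called 721 genes (8.21%), 385 of them lower in ErbB4myeKO (4.38%) and 336 higher (3.83%). Members were chosen in part on this contrast, so their counts are a description. Without litter 5, 33 of the 41 had a mean ratio below 0, against 50.4% of all genes. The mean ratio without litter 5 was -0.38 for Gmfg, -0.79 for Plekho1, -0.56 for Capzb, 0.34 for Fscn1, -0.19 for Actb, -0.21 for Actg1 and 0.19 for Tmsb4x. Of the 7 macrophage markers, 4 also had a mean ratio below 0 (Cd68, Fcgr1, Itgam and Lyz2). The sum of the 7 had a median of 6648 TPM in ErbB4myeKO and 10343 TPM in ErbB4FF libraries. It was higher in the ErbB4myeKO littermate in litter 6 alone, at 9857 TPM against 5088 TPM. Lyz2, at the locus whose promoter drives Cre, held most of that sum. Its mean was 5305 TPM in ErbB4myeKO and 8277 TPM in ErbB4FF libraries. The log2 ratio of Lyz2 was -0.97, -0.83, -1.15, -1.20 and -0.81 in litters 1 to 5, and 1.43 in litter 6. What lay behind the reversal in litter 6 was not tested. The sum mostly follows Lyz2 and is not read as a share of macrophages. The markers Adgre1, Csf1r and Mertk had mean log2 ratios of 0.01, 0.05 and 0.14, and Cd68 and Itgam had ones of -0.12 and -0.20. Mertk was higher in 6 of 6 litters, from 0.001 in litter 3 to 0.47 in litter 6. Fcgr1 had a mean ratio of -0.86, lower in 6 of 6, from -2.20 in litter 2 to -0.18 in litter 5. The part of the macrophage markers in the ratios of the members was not tested. RNA of bulk cultures cannot tell a smaller share of cells that express a gene from less of its RNA per cell.

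The share of genes lower in ErbB4myeKO differed by level. Of all genes that reached 100 TPM on average, 65.8% were lower in ErbB4myeKO, as were 24 of the 26 members at that level. Among genes between 10 and 100 TPM the share was 53.0%, against 9 of 11 members, and between 1 and 10 TPM it was 45.2%, against 2 of 4 members. Of all genes with transcripts under 1000 bases, 57.7% were lower in ErbB4myeKO, and of those of 4000 bases and over, 40.4%; members were lower in 4 of 5 and 3 of 4. The ratio had a Pearson r with log2 length of 0.06 over all 8780 genes and 0.24 over the 41 members, across genes that are not independent replicates. The part of level and length in the members' ratios was not tested. By litter, the number of members lower in the ErbB4myeKO littermate was 30, 33, 25, 29, 29 and 27 of 41 in litters 1 to 6. The share of all genes that were lower was 49.7%, 47.2%, 51.4%, 53.6%, 46.9% and 47.7% in the same order, so that members and all genes lay nearest to each other in litter 3, at 61.0% and 51.4%.

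The direction was the same in all 6 litters for 7 members. Arpc5, Cyfip1, Wdr1, Gmfg, Coro1a and Plekho1 were lower in every ErbB4myeKO littermate, where 203 of all 8780 genes were (2.31%). Fscn1 was higher in every one, as were 220 of all genes (2.51%), and 423 genes went 1 way in all litters (4.82%). Nothing is read from these counts, since the same littermates helped to choose the members.

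**Figure D2:**
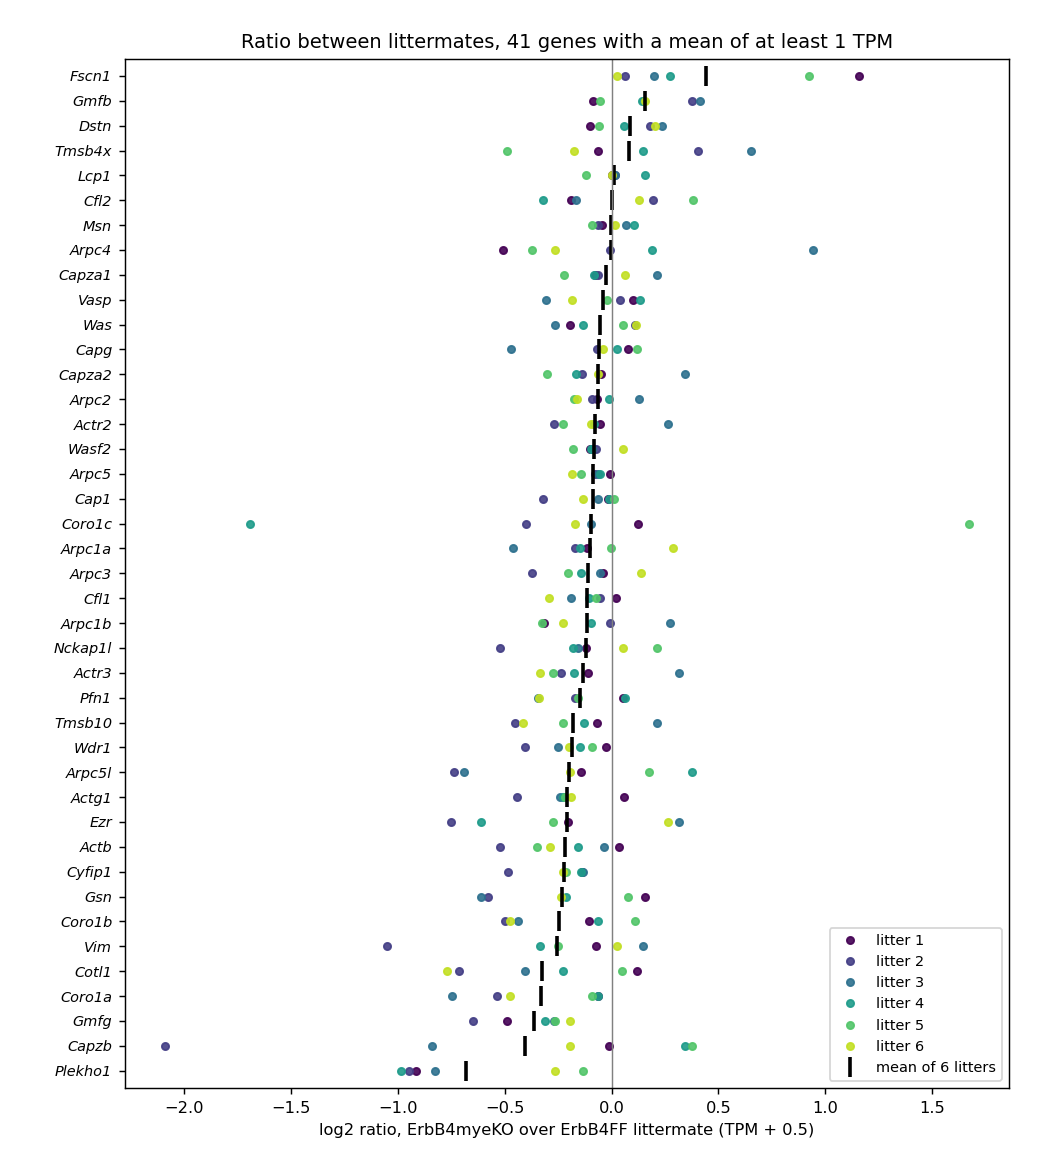
Log2 ratio of ErbB4myeKO over ErbB4FF littermate for the 41 members with a mean of at least 1 TPM, 1 coloured point per litter and a black bar at the mean of 6 litters. The means of 35 members lie below 0; Plekho1 (-0.68) and Capzb (-0.40) lie lowest, Fscn1 (0.44) highest, and the single litters of Coro1c and Capzb are spread widest.

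The actins polymerise into the filaments themselves. Actb was at 3237 TPM in the lowest, 4727 TPM at the median and 8660.0 TPM in the highest ErbB4myeKO library. Its ErbB4FF levels were 3313, 5822 and 11025 TPM, and the highest library of each genotype came from litter 5. The Actb ratio was -0.22 ± 0.21, lower in the ErbB4myeKO littermate in 5 of 6 litters. Actg1, γ-actin, the other actin of non-muscle cells, was at 1377, 1884 and 2831 TPM in ErbB4myeKO and at 1628, 2297 and 3287 TPM in ErbB4FF libraries. Its ratio was -0.21 ± 0.16, again with 5 of 6 litters lower. The balance between the actins was close between littermates: Actb made up between 67.0% and 77.0% of their summed TPM, and its share differed by -0.07 ± 1.83 percentage points. Both actins have long stretches in common with other genes. Up to 57.3% of the 31-base words of a listed Actg1 transcript are in the processed pseudogene Gm12715. Of those of the Actb transcript, 35.1% are in other genes, and 22.7% in the protein-coding gene Lrrc58. The estimates of both levels, and of the share, depend on how reads were divided among these genes.

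Monomer-binding proteins hold the pool from which filaments grow. Tmsb4x, thymosin β4, which sequesters monomers, was at 2049, 2579 and 4260.0 TPM (lowest, median and highest) in ErbB4myeKO and at 1840.3, 2571 and 5774 TPM in ErbB4FF libraries. The genotypes had almost the same median, and the ratio was 0.08 ± 0.41, with 3 litters in each direction. Tmsb10, thymosin β10, was at 430.1, 636 and 1793 TPM in ErbB4myeKO and at 487, 682 and 2101 TPM in ErbB4FF libraries. In both genotypes its litter 5 library was the highest. The ratio of Tmsb10 was -0.18 ± 0.25, with 5 of 6 litters lower. Pfn1, profilin 1, which delivers monomers to growing ends, and Cap1, which recycles them, had ratios of -0.15 ± 0.18 and -0.09 ± 0.12 at mean levels of 1472 and 376 TPM. A listed transcript of Tmsb10 shares 73.7% of its 31-base words with transcripts of other genes, so its level is less certain than that of Pfn1.

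Among the proteins that take filaments apart, Gmfg had the lowest mean ratio. Its levels were 94.2, 133 and 268 TPM in ErbB4myeKO and 132, 161 and 321 TPM in ErbB4FF libraries, with the highest library of each genotype from litter 5. The Gmfg ratio was -0.36 ± 0.17, with all 6 litters lower, from -0.65 in litter 2 to -0.19 in litter 6. Gmfb, its closest relative, stood at 25.5, 34.6 and 54.5 TPM in ErbB4myeKO and at 26.4, 28.7 and 40.8 TPM in ErbB4FF libraries, and its ratio was 0.16 ± 0.21, with 4 of 6 litters higher. Of the summed TPM of both, Gmfg held a median of 79.3% in ErbB4myeKO and 84.8% in ErbB4FF libraries, a difference of -5.46 ± 3.29 percentage points that was negative in 6 of 6 litters.

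Cfl1, cofilin 1, which severs filaments, had a mean level of 172 TPM, and the muscle-type cofilin Cfl2 one of 3.70 TPM. Cfl2 was at 2.56, 3.88 and 4.54 TPM in ErbB4myeKO and at 2.73, 3.70 and 4.61 TPM in ErbB4FF libraries, ranges that were almost the same, and its ratio was 0.00 ± 0.27. Cfl1 had a ratio of -0.12 ± 0.11, and Wdr1, which helps cofilin to disassemble filaments, one of -0.19 ± 0.13 at 216 TPM. Cotl1, a coactosin-like protein that binds filaments, had a ratio of -0.32 ± 0.38 at 152 TPM, lower in 4 of 6 litters. Dstn, destrin, had a ratio of 0.09 ± 0.14 at 98.01 TPM, higher in 4 of 6.

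The 9 genes of the Arp2/3 complex, which nucleates branches, all had mean ratios below 0, between -0.20 (Arpc5l) and -0.00 (Arpc4); that of Arpc4 was above 0 without litter 1, 5 or 6 and with a Y-linked covariate. Their levels were far from equal, although the complex holds its subunits in equal number. Arpc2 had a mean of 986 TPM, Arpc5 of 497 TPM, the actin-related proteins Actr2 and Actr3 of 388 and 356 TPM, and Arpc3 of 266 TPM, while Arpc1a and Arpc1b had 40.2 and 38.1 TPM, Arpc5l 16.8 TPM and Arpc4 14.4 TPM. Arpc5 was lower in the ErbB4myeKO littermate in all 6 litters, by a ratio of -0.09 ± 0.06, the smallest spread among the 9. Arpc1a and Arpc1b, alternative forms of the same subunit, lie next to each other on the + strand at chr5:145083830-145108761 and chr5:145114215-145130705 (GRCm38), and Arpc1b made up between 40.6% and 64.1% of their sum. Of the alternative forms of the fifth subunit, Arpc5 held at least 93.1% in every library. Only transcripts marked as principal are listed. Of the 31-base words of the Arpc4 transcript, 11.3% are shared with Ttll3, and of those of the Arpc1b transcript, 22.5% with other genes. Pseudogenes hold 62.4% of those of an Actr3 transcript and 79.6% of those of the Capza1 transcript.

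WASP and WAVE proteins switch the Arp2/3 complex on. Nckap1l, the Hem1 subunit of the WAVE complex in blood cells, was at 104, 245 and 311 TPM in ErbB4myeKO and at 89.8, 292 and 352 TPM in ErbB4FF libraries. The lowest library of each genotype was that of litter 5. Its ratio was -0.12 ± 0.25, with 4 of 6 litters lower. Wasf2, WAVE2, the subunit that carries the activating end, was at 27.8, 57.3 and 63.8 TPM in ErbB4myeKO and at 31.6, 60.9 and 68.0 TPM in ErbB4FF libraries, again lowest in litter 5. The Wasf2 ratio was -0.08 ± 0.08, with 5 of 6 litters lower. Cyfip1, the WAVE subunit that Rac binds, had a ratio of -0.22 ± 0.13 at 234 TPM, lower in all 6 litters, and Was, the Wiskott-Aldrich syndrome protein, one of -0.05 ± 0.17 at 27.8 TPM.

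Capping proteins close the growing end of a filament. Plekho1, a protein that binds both capping protein and casein kinase 2, was the member with the lowest ratio. In ErbB4myeKO libraries it was at 2.77, 5.63, 2.04, 5.07, 16.9 and 8.85 TPM in litters 1 to 6, and in their ErbB4FF littermates at 5.67, 11.3, 4.002, 10.5, 18.5 and 10.8 TPM. Each ErbB4myeKO library was below its littermate, and in litters 5 and 6 the distance was smallest. The Plekho1 ratio was -0.68 ± 0.38, from -0.99 in litter 4 to -0.13 in litter 5. Capzb, the β subunit of capping protein, was at 2.37, 9.03 and 15.3 TPM in ErbB4myeKO and at 6.54, 11.4 and 12.9 TPM in ErbB4FF libraries. Its ratio of -0.40 ± 0.94 rests on litter 2, where it was -2.09 (-0.07 without that litter), and in litters 4 and 5 Capzb was higher in the ErbB4myeKO littermate. The α subunits Capza2 and Capza1, at 317 and 153 TPM, had ratios of -0.06 ± 0.22 and -0.03 ± 0.15. The listed Capzb transcript is 1 principal form, so its level of 9.68 TPM need not be that of all Capzb RNA. Capg and Gsn, of the gelsolin family, had ratios of -0.06 ± 0.21 and -0.23 ± 0.32 at 702 and 70.3 TPM.

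Coronins, which link filament turnover to the Arp2/3 complex, were led by Coro1a, the form of blood cells, at 82.1, 121 and 174 TPM in ErbB4myeKO and 115, 156 and 187 TPM in ErbB4FF libraries. Coro1a was lower in every ErbB4myeKO littermate, by a ratio of -0.33 ± 0.30, from -0.75 in litter 3 to -0.06 in litter 4. Coro1b had a ratio of -0.25 ± 0.26, and 23.8% of the 31-base words of its transcript are in other genes, 21.6% in Ptprcap. Coro1c had one of -0.09 ± 1.08, and the litters went far apart, from -1.69 in litter 4 to 1.67 in litter 5.

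Bundling proteins lay filaments side by side. Lcp1, L-plastin, the bundler of white blood cells, was at 921, 1618 and 1853 TPM in ErbB4myeKO and at 1000.1, 1608 and 1831 TPM in ErbB4FF libraries, with both lowest values from litter 5. The medians were close, and the ratio was 0.01 ± 0.09. Fscn1, fascin, which bundles the filaments of thin protrusions and is abundant in mature dendritic cells, was at 3.69, 7.72 and 17.4 TPM in ErbB4myeKO and at 3.17, 7.08 and 9.17 TPM in ErbB4FF libraries. Every ErbB4myeKO littermate was higher, and the ratio of 0.44 ± 0.48 was made up of 1.16 in litter 1, 0.93 in litter 5 and 0.03 to 0.28 in the others. The 8 dendritic cell markers summed to 56.8 to 136 TPM in ErbB4myeKO and 39.4 to 105 TPM in ErbB4FF libraries, and their sum was higher in the ErbB4myeKO littermate in 5 of 6 litters. Ccr7 and Xcr1 held most of that sum. Xcr1 and Itgax had mean log2 ratios of 0.63 and 0.44, each higher in 5 of 6 litters. The litters were spread widely, from -0.10 in litter 5 to 1.49 in litter 4 for Xcr1. For Itgax they ran from -0.46 in litter 3 to 1.36 in litter 2. Zbtb46 went the other way, at -0.18 and lower in 4 of 6, and Clec9a and Flt3 had ratios of 0.10 and 0.02. Itgax and Clec9a had means of 9.62 and 1.67 TPM, Flt3 and Zbtb46 of 0.0279 and 0.166 TPM, and Cd209a and Siglech were listed at 0 in every library. The part of such cells in the Fscn1 ratio was not tested.

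Vasp and Evl extend filaments at their growing ends. Vasp had a mean of 555 TPM and a ratio of -0.04 ± 0.17. Evl was listed at 0 in 11 libraries and at 0.896 TPM in the ErbB4myeKO library of litter 5, so its mean log2 ratio of 0.25 comes from that library alone. The membrane linkers Msn, moesin, and Ezr, ezrin, which tie filaments to the membrane, had ratios of -0.00 ± 0.08 and -0.21 ± 0.44 at 660 and 69.1 TPM, and Msn held between 87.2% and 93.8% of their sum. Vim, the intermediate filament protein of macrophages and fibroblasts, had a ratio of -0.26 ± 0.43 at 426 TPM. Without litter 2 the ratios of Vim and Ezr were -0.10 each, and leaving out 1 litter moved the ratio of 24 of the 41 members by over 1.5 times for at least 1 choice of litter. The 8 fibroblast markers, Acta2 and Tagln above all, summed to between 34.8 and 398 TPM and were higher in the ErbB4myeKO littermate in 3 of 6 litters; their part in the level of Vim was not tested.

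Of the 12 members with more than 1 transcript past the filter, 8 had mean ratios of both signs among them: Cap1, Capg, Coro1a, Gmfb, Gmfg, Lcp1, Tmsb10 and Wasf2. The 2 forms of Gmfg, at mean levels of 79.3 and 88.7 TPM, are described in full. The gene lies on the + strand of chromosome 7, at chr7:28437447-28448233 (GRCm38, GENCODE M21). Its transcripts start 3480 bases apart and differ in the first exon, and 5 later exons are shared from start to end. Exon 1 of the upstream form, ENSMUST00000108292, is at chr7:28437447-28437574, and that of the downstream form, ENSMUST00000078845, at chr7:28440927-28441041. Both code for the same 426 bases, of which the first exon gives 3, the start codon. The joins of exon 1 (capitals) to exon 2 (lower case) are shown, and reads within exon 1 or across its join can tell the forms apart.
Gmfg upstream first exon: GGATCATTAGAGATGtcggactccctggtg
Gmfg downstream first exon: GGACAGAAAAACATGtcggactccctggtg
Reads of 31 bases or longer can be placed on 1 of the forms through 132 and 112 words that the other lacks; 66 words of the upstream form are in no other Gmfg transcript of the annotation. A further limit is Gmfg-ps, a processed pseudogene that shares 50.6% of the upstream and 52.2% of the downstream transcript's 31-base words.

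The upstream form was at 16.1, 64.6, 0.612, 49.8, 138 and 31.1 TPM in the ErbB4myeKO libraries of litters 1 to 6. Their ErbB4FF littermates had 87.5, 121, 47.5, 80.9, 227 and 86.4 TPM. It was lower in every ErbB4myeKO littermate, with a mean log2 ratio of -1.94 ± 1.83, between -5.43 in litter 3 and -0.70 in litter 4; without litter 3 the mean was -1.24. The downstream form was at 76.4, 94.6 and 129 TPM (lowest, median and highest) in ErbB4myeKO and at 44.7, 90.4 and 100.1 TPM in ErbB4FF libraries, with a ratio of 0.32 ± 0.46, higher in 4 of 6 litters. The upstream form thus held 0.550%, 29.6% and 51.8% of Gmfg TPM in ErbB4myeKO libraries and 35.4%, 57.8% and 70.7% in ErbB4FF libraries. The share was lower in the ErbB4myeKO littermate in 6 of 6 litters, by 8.92 to 49.1 percentage points (-26.4 ± 16.0). Gmfg was chosen on the genotype contrast, so these values are a description. In the limma fit over 10085 transcripts, 0 (0%) passed an adjusted p of 0.05, with a smallest adjusted p of 0.685, and 678 (6.72%) had an unadjusted p under 0.05.

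**Figure D3:**
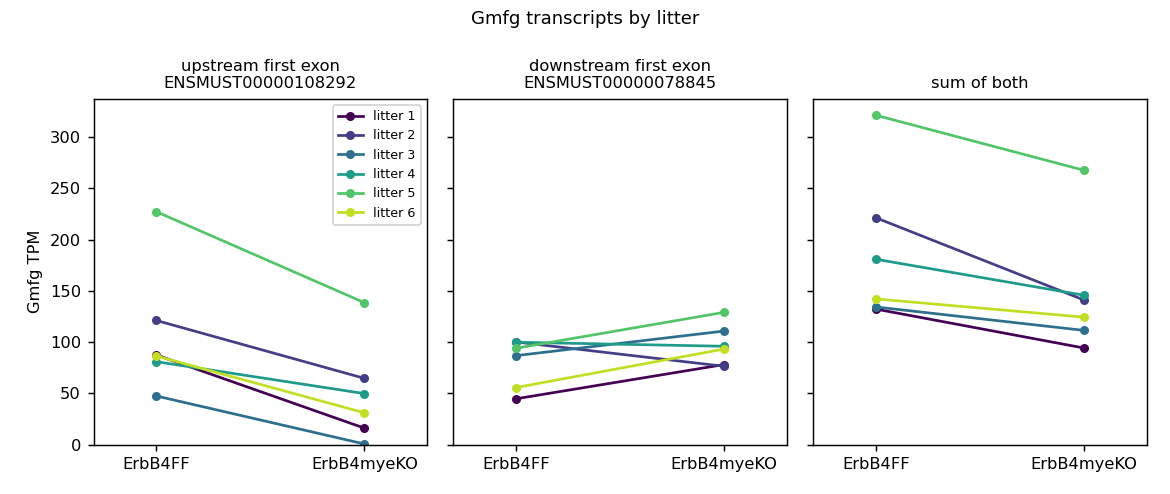
TPM of the upstream and the downstream form of Gmfg and of their sum in ErbB4FF and ErbB4myeKO libraries, with a line for each of the 6 litters. The upstream form falls in each line, from between 47.5 and 227 TPM to between 0.612 and 138 TPM, whereas 4 of the 6 lines of the downstream form rise.

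The sequence before each Gmfg first exon is shown since the forms start from separate places in the genome. Windows came from RefSeq (GRCm38.p6, 250 bases before to 50 after a start) and were ended at the base before the GENCODE first exon. Capitals mark the GC box, GGGCGG, which was searched on both strands.
Gmfg upstream, chr7:28437219-28437446, + strand: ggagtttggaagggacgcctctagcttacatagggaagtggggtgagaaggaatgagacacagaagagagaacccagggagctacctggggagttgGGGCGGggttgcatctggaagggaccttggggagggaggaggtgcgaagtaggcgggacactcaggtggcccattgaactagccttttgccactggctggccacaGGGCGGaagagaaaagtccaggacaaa
Gmfg downstream, chr7:28440687-28440926, + strand: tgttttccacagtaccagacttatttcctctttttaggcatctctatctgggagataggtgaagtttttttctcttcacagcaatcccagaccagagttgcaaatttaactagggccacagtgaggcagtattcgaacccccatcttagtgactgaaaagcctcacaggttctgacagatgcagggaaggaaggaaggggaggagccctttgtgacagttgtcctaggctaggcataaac
The stretch printed for the upstream form holds 2 GC boxes, and that for the downstream form none of the 7 motifs searched. A full Gmfg window of 300 bases, which runs into the transcript, also holds a CCAAT box.

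The full windows of 36 of the 42 members, 44 in all, were searched for the same motifs on both strands; Actb, Cotl1, Coro1b, Cyfip1, Nckap1l and Arpc5l had none and were not searched. Motifs could overlap. The serum response element, or CArG box (CC, 6 bases of A or T, then GG), through which SRF is known to drive actin genes, was in 4.55% of member windows, those of Actg1 and Arpc4, and in 1.63% of all 32851 windows. The GC box was in 72.7% of member and 35.7% of all windows, and the ETS core CCGGAAG in 29.5% and 8.86%; the windows with an ETS core were those of 13 members, among them Actr2, Actr3, Arpc1a, Arpc3, Arpc4 and Cfl1. CCAAT was in 25.0% of member and 37.4% of all windows, and TATAAA in 4.55% and 13.6%. The PU.1 box, gaggaagt, was in 2.27% against 3.202%, and the interferon-stimulated response element, gaaanngaaa, in 0% against 3.44%. These shares describe letters in windows, and a match is not a site of binding. The Actg1 window, ended before its GENCODE first exon, is printed with its CArG box in capitals.
Actg1, chr11:120348543-120348745, - strand: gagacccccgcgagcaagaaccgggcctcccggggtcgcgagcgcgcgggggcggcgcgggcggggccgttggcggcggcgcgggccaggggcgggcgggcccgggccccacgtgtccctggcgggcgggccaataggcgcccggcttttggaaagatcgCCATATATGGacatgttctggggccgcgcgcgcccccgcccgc

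The next comparison asked which members differed between litters. The moderated F test of litter in limma, with genotype in the model, called 28 of the 41 members at an adjusted p under 0.05 (68.3%), against 3938 of all 8780 genes (44.9%). Tmsb10 had the largest F (45.1, limma adjusted p = 0.000755), followed by Wasf2 (36.4, limma adjusted p = 0.00109), Nckap1l (31.8, limma adjusted p = 0.00140), Gmfg (31.2, limma adjusted p = 0.00145) and Lcp1 (26.6, limma adjusted p = 0.00196). By role, the test called both actins, 3 of 4 monomer-binding genes, 6 of 7 of the ADF/cofilin group, all 4 WASP and WAVE genes and both membrane linkers. It called 4 of 9 Arp2/3 genes and 2 of 6 genes of capping and severing. Without litter 5 it called 6 members (14.6%), Cotl1, Dstn, Plekho1, Tmsb10, Was and Wdr1, and 1002 of all genes (11.5%). Tmsb10 and Plekho1 thus passed on either count, with adjusted p of 0.0317 and 0.0284 in limma without litter 5, and Wasf2, Nckap1l, Gmfg and Lcp1 did not, with adjusted p of 0.1499, 0.193, 0.0608 and 0.151.

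In litter 5 some members were higher and others lower than everywhere else, a litter that was singled out after its values were seen. Both of its libraries were above all 10 others for 14 members (34.1%, against 20.2% of all genes): Actb, Actg1, Pfn1, Tmsb10, Vim, Cfl1, Wdr1, Capg, Arpc1a, Arpc1b, Arpc2, Arpc5l, Gmfg and Plekho1. Both were below all others for 10 members (24.4%, against 19.9% of all genes): Nckap1l, Cyfip1, Wasf2, Lcp1, Msn, Ezr, Actr2, Arpc5, Capza1 and Vasp. In either direction this held for 40.1% of all genes. Tmsb10, for example, was at 1793 and 2101 TPM in litter 5 and between 430.1 and 1296 TPM elsewhere. Nckap1l went the other way, at 89.8 and 104 TPM in litter 5 and between 236 and 352 TPM elsewhere. Within the Arp2/3 complex, Arpc1b was at 49.4 and 62.0 TPM against 27.2 to 41.2 TPM, whereas Actr2 was at 281.6 and 329.8 TPM against 368 to 457 TPM.

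Transcript length moved with that split. The median length of the most abundant listed transcript was 1730 bases among the 14 members that were higher in litter 5 and 3613 bases among the 10 that were lower, and over all genes it was 1581 and 4458 bases. Across the 41 members, the distance of litter 5 from the other litters had a Pearson r of -0.75 with log2 length, and across all 8780 genes one of -0.48; the points share the same libraries, genes are not independent replicates, and no test was made. The 5 members under 1000 bases had a median distance of 1.00 (0.88 in all genes), and the 4 of 4000 bases and over one of -0.97 (-0.55 in all genes). Both libraries of litters 5 and 6 had Y-linked sums of at most 0.406 TPM against at least 36.1 TPM in litters 1 to 4, so the littermates of each pair were alike in that level. With the Y-linked level as a covariate, the litter test called 9 members and 837 of all genes. The Y-linked level differed mostly between litters, so the covariate takes up part of what the litter test measures. The lower counts are therefore not read as a part of sex. The part of length, sex or batch in the distance of litter 5 was not tested, and litter and batch carry the same letter on the labels and cannot be told apart.

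**Figure D4:**
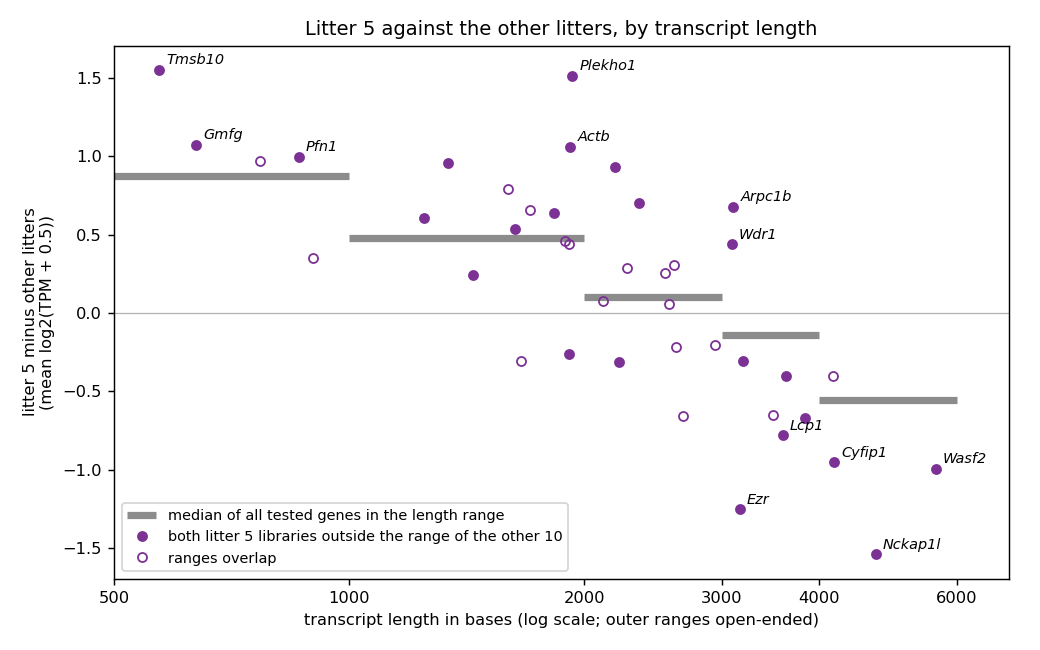
Mean log2(TPM + 0.5) of the litter 5 libraries minus that of the other 10 libraries (y axis) against transcript length in bases (log x axis) for 41 members; grey bars give the median of all genes in a length range. Tmsb10, Gmfg and Pfn1, all under 1000 bases, lie about 1.00 or more above 0, and Nckap1l, Wasf2 and Cyfip1, over 4000 bases, at or below -0.95.

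Other genes of the same machinery were taken from a list that holds no member and that was also written with earlier results known. It has 115 genes in the table, small GTPases and their regulators, formins, kinases, myosins, crosslinkers, adhesion linkers, SRF cofactors, tubulins and lamins, and 89 passed the filter. In limma, 0 of the 89 passed an adjusted p of 0.05 for genotype. At an unadjusted p under 0.05 there were 6 (6.74%, against 8.21% of all genes), all lower in ErbB4myeKO: Marcksl1, Rac2, Tuba1b, Myl12b, Ssh1 and Elmo1. The count was 1 without litter 2 (Marcksl1) and 1 in limma without trend (Ssh1). Genes higher in ErbB4myeKO were among those called under other settings, 2 of 9 with a pseudocount of 1, 1 of 3 with the Y-linked covariate and 2 of 4 without litter 1. By direction, 49 of the 89 were lower and 40 higher. The litter test called 56 of the 89 (62.9%, against 44.9% of all genes).

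Marcksl1, which crosslinks filaments at the membrane, was at 1089, 1242 and 1744 TPM in ErbB4myeKO and at 1239.7, 1480.4 and 1782 TPM in ErbB4FF libraries, with a ratio of -0.21 ± 0.18 (limma adjusted p = 0.603). Rac2, the Rac protein of blood cells that acts on the WAVE complex, had a ratio of -0.21 ± 0.20, and Tuba1b, an α-tubulin, one of -0.13 ± 0.07, lower in 6 of 6 litters. In the other direction, the bundler Pls3 was at 0.99 ± 1.29 (0.49 without litter 5) and the kinase Rock2, which drives contraction, was at 0.23 ± 0.24. Each was higher in 5 of 6 litters, and none of the 5 named genes passed the adjusted threshold in limma (adjusted p = 0.603 for each).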

How the data were processed

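RNA of M1-activated BM-Mɸs from 6 ErbB4myeKO mice and 6 ErbB4FF littermates was read as single ends. The authors pseudoaligned reads with kallisto and deposited TPM for transcripts marked as principal by APPRIS; the processing notes name mm10 and give no versions. The 12 columns of the authors' sleuth statistics were not used. TPM keep no depth, so precision rests on the spread between litters. Repeated lines (405) were dropped, and TPM were summed per gene.

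Genes were kept if they averaged 1 TPM or more. Their log2(TPM + 0.5) entered a linear model of genotype and litter (limma 3.58.1, R 4.3.3, eBayes with trend), with p adjusted by Benjamini-Hochberg over all genes. Sex is not on the labels. Equal replicate numbers carry the same batch letter and were taken as litters; littermates deviated together, with r between 0.273 and 0.774 in the 6 litters. Positions and transcripts are from GENCODE M21 and promoter windows from RefSeq. Figures used Python 3.11.15 with matplotlib 3.10.9.

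The members, lists and tests were chosen with earlier results of these data known. Genes with full values are Gmfg and Plekho1, the 3 members with the highest and the 3 with the lowest mean, the 5 with the largest litter F, the 3 with the largest ratio in each direction, and the 3 genes of the pathway list with the smallest p in each direction (1 is not reported here); others named in full were chosen after their values were seen. Alternatives were no litter block, pseudocounts of 0.1 and 1, no filter, a mean of at least 5 TPM and median ratio scaling. Further ones were no trend, the most abundant transcript alone, the Y-linked level as a covariate, and each litter left out. Since the Y-linked level was alike in the littermates of each pair, the covariate adds no adjustment for sex beyond the litter block.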

Additional observations from a re-analysis of the deposited data

Results flagged for a closer look

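In groups of 6 values, the distance of the highest or lowest value from its neighbour was set against the whole range, with Dixon's 95% critical value. Of 60 groups looked at, 8 were over it, 7 of them in litter 5. Chance flags about 1 in 20 groups of values that were not chosen; these genes were chosen in part for large differences between litters or large ratios, so that rate is no measure for them. Gmfg was at 268 TPM in the ErbB4myeKO library of litter 5, above the other 5 ErbB4myeKO libraries. Tmsb4x was at 5774 TPM in the ErbB4FF library of litter 5. Evl was at 0.896 TPM in the ErbB4myeKO library of litter 5 and at 0 in all others, which gave a log2 ratio of 1.48 in that litter. Wasf2 and Nckap1l were low in the ErbB4myeKO library of litter 5, at 27.8 and 104 TPM. Pls3 had a log2 ratio of 3.51 in litter 5, where it was listed at 0 in the ErbB4FF library. Marcksl1 was at 1744 TPM in the ErbB4myeKO library of litter 4.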

How the results depend on the processing

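The log2 ratio of Gmfg changed sign with the most abundant transcript alone, from -0.36 to 0.32, since that transcript is the downstream form. The genotype count over all genes was 0 to 1 when each litter was left out, the 1 gene being called without litter 3, and 0 under every other alternative run; the counts of members, pathway genes and transcripts at an adjusted p under 0.05 were 0 throughout. The litter count was 1002 to 4092 over all genes and 6 to 27 over members when each litter was left out. The lowest of both came without litter 5. With the Y-linked covariate, which overlaps with litter, the counts were 837 and 9. Without the replicate block, 75 genes had an unadjusted genotype p under 0.05 in place of 721 and the smallest adjusted p was 1.00; the block changed no call at the adjusted threshold. Without litters 2 and 4 that number was 413 and 458. For the pathway list it was 0 without the block and 3 with the Y-linked covariate, in place of 6. Members with a mean ratio below 0 numbered between 33 and 36 in all alternatives, and the ratios of Arpc4, Capg, Capza1, Cfl2, Coro1c, Lcp1, Msn, Tmsb4x and Vasp changed sign in at least 1 of them. TPM carry no depth for a library, which limits what can be said of Evl, Cfl2, Fscn1 and Plekho1. The cause of these shifts was not tested.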
